A study of Mus musculus with 2 samples.

Results

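The Hox genes were described in a single-cell RNA-seq study of the fetal mouse pancreas. They comprised each gene listed by name as Hoxa, Hoxb, Hoxc or Hoxd followed by its paralog number alone, which gave 36 of the 25267 genes listed in either library: 32 in the wild-type (WT) table, 34 in the Mettl3pKO table and 30 in both. The study compared E15.5 pancreata of WT embryos with those of Mettl3pKO embryos, in which Pdx1+ pancreatic progenitors lack Mettl3, the methyltransferase that places N6-methyladenosine in RNA. Each genotype gave 1 library, made on a microwell (BD Rhapsody) platform from enzymatically dissociated tissue. The labels name neither the strain, the driver of the deletion nor the number of embryos behind each library. In the Mettl3pKO embryos the labels place the deletion in the Pdx1+ lineage, which forms the pancreatic epithelium. Mesenchyme, mesothelium, endothelium, nerve and blood cells arise outside that lineage.

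Hox genes encode homeodomain transcription factors. They lie in clusters (a on chromosome 6, b on 11, c on 15 and d on 2 in the mouse), and their order along a cluster follows the order in which they are used along the body axis. Low paralog numbers are used from the head and hindbrain backward, high ones toward the tail, and many Hox proteins bind DNA together with TALE homeodomain partners of the Pbx, Meis and Pknox families. In visceral organs a Hox code is kept mainly by mesoderm-derived cells and by neural crest derivatives. The pancreas epithelium is instead marked by Pdx1, a gene of the ParaHox family, which is related to the Hox family and lies outside the Hox clusters.

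The WT library held 6384 complete cells with a median of 10824 UMIs (unique molecular identifiers, counts of captured RNA molecules) and the Mettl3pKO library 3624 cells with a median of 16481. The fewest UMIs in a complete cell were 3803 in WT and 10719 in Mettl3pKO. After filtering, 6032 and 3622 cells were kept, and the libraries shared 33 cell indices. Cells were clustered together with no Hox gene among the 2000 genes used, so that a Hox level did not help to define a cluster. Each cluster was named from fixed marker lists and is called X-like, since the names were rebuilt here. Levels are UMIs per 1000000 UMIs of a class (CPM). Intervals are 95% intervals for counting error only, PCR and cell-to-cell spread left aside. With 1 library per genotype no difference has a replicate check and no test was possible. UMIs were not divided by gene length, so that orders and shares across genes are of UMIs and not of transcripts per length.

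The mesenchyme-like class held 1151 WT and 267 Mettl3pKO cells, the mesothelium-like class 203 and 76, the smooth muscle- and pericyte-like class 89 and 28, the endothelium-like class 67 and 9, and the epithelium-like classes together 4252 and 2830. No cluster took the name glia. The median WT cell had 8901 UMIs in the mesenchyme-like class, 9198 in the mesothelium-like and 9101 in the endothelium-like class. Each lies below the 10719 UMIs of the shallowest Mettl3pKO cell. Class sizes and makeup were thus not compared at equal depth, and the part of depth in them was not tested. Mettl3 stood at 13.1 CPM in WT and 8.09 CPM in Mettl3pKO epithelium-like cells (ratio 0.619, interval 0.548 to 0.699), and at 16.7 and 13.6 CPM in mesenchyme-like cells (0.812, 0.583 to 1.11). Which exons were deleted is not named in the labels, so the extent of the deletion cannot be read from Mettl3 UMIs.

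Sequence windows of 250 bases just before the start site were matched for 21 of the 36 Hox genes (23 windows, RefSeq, build GRCm38.p6). Shown here are those of Hoxa5, the Hox gene with the most UMIs in mesenchyme-like and mesothelium-like cells, of Hoxb4, among the leading genes of mesenchyme-like cells, of Hoxb8, which was higher in mesothelium-like and endothelium-like than in mesenchyme-like cells, and of Hoxd8, which led in WT endothelium-like cells. They were taken from the 13 windows with no base in a GENCODE exon. Capitals mark the TATA box letters TATAAA, the CCAAT box letters CCAAT and the letters TGATNNAT, a form of the composite site bound by Hox and Pbx proteins, each on either strand. The windows are chr6:52204588-52204837 on the minus strand for Hoxa5, chr11:96318017-96318266 on the plus strand for Hoxb4, chr11:96281655-96281904 on the plus strand for Hoxb8, and chr2:74704365-74704614 on the plus strand for Hoxd8, and each reads 5′ to 3′ toward its gene.
Hoxa5: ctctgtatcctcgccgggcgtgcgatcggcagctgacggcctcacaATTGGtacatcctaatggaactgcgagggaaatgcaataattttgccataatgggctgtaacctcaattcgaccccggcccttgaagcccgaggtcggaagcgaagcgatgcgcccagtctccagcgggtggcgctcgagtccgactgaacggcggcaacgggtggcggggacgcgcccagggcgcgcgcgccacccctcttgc
Hoxb4: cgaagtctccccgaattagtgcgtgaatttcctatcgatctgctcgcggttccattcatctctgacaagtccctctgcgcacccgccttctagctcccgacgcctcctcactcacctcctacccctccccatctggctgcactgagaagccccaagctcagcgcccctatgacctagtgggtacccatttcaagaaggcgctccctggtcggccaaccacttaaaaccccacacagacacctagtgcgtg
Hoxb8: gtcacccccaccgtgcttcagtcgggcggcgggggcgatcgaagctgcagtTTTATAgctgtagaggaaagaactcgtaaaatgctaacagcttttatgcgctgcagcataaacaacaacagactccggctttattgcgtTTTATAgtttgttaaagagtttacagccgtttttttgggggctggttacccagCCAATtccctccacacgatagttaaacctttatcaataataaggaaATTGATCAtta
Hoxd8: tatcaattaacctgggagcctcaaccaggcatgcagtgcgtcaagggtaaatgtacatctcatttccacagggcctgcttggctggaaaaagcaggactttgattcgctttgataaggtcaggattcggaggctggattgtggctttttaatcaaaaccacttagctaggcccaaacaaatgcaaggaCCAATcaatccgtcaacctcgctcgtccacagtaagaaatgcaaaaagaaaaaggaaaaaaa
The Hoxa5 window held 28 CpG dinucleotides and 1 CCAAT, the Hoxb4 window 14 CpG dinucleotides and none of the motifs, the Hoxb8 window 12 CpG dinucleotides with 2 TATAAA, 1 CCAAT and 1 TGATNNAT, and the Hoxd8 window 6 CpG dinucleotides and 1 CCAAT. Over all Hox windows the median was 13 CpG dinucleotides, against 6 over 32851 windows of all genes. CCAAT was in 13 of 23 Hox windows (56.5%, against 33.8% of all windows), TATAAA in 4 (17.4%, against 12.4%) and TGATNNAT in 4 (17.4%, against 7.68%). These are matches of letters and not measured binding sites.

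Hox UMIs were concentrated in the cells of the tissue around the epithelium. Of 10035 Hox UMIs in kept WT cells, mesenchyme-like cells held 7331 (73.1%), mesothelium-like cells 1560 (15.55%), smooth muscle- and pericyte-like cells 544 (5.42%), endothelium-like cells 296 (2.95%) and epithelium-like cells 228 (2.27%). The summed Hox level in WT was 775 CPM (737 to 815) in mesothelium-like cells, 672 (657 to 688) in mesenchyme-like cells, 582 (534 to 633) in smooth muscle- and pericyte-like cells and 429 (382 to 481) in endothelium-like cells. It was 4.07 (3.56 to 4.63) in epithelium-like cells. In Mettl3pKO the same classes stood at 468 (431 to 508), 630.0 (605 to 656), 433 (371 to 501), 447 (346 to 567) and 7.72 (6.98 to 8.52). The 4 classes outside the epithelium thus stood far above it in both libraries. Among them the mesothelium-like class was highest in WT and the mesenchyme-like class in Mettl3pKO.

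Hox UMIs were found in nearly all mesenchyme-like cells. With cells thinned to 7000 UMIs (1082 WT and 267 Mettl3pKO cells had that many), 97.3% of WT and 96.3% of Mettl3pKO mesenchyme-like cells had a Hox UMI (98.6% and 99.6% unthinned). The median cell held UMIs of 4 Hox genes in WT and 5 in Mettl3pKO before thinning, and of 3 in each after it. The share was 97.9% (185 of 189 cells) and 88.2% (67 of 76) in mesothelium-like cells and 90.6% (58 of 64) in WT endothelium-like cells. Erythroid-like cells were read beside these as a guide to free RNA from other cells. A Hox UMI was found in 1.01% (0.0256 to 5.50) of 99 WT and 4.08% (0.498 to 13.98) of 49 Mettl3pKO erythroid-like cells, thinned alike. Their median depths were 11379 and 17180 UMIs. Whether erythroid-like cells make Hox RNA of their own was not tested.

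**Figure D1:**
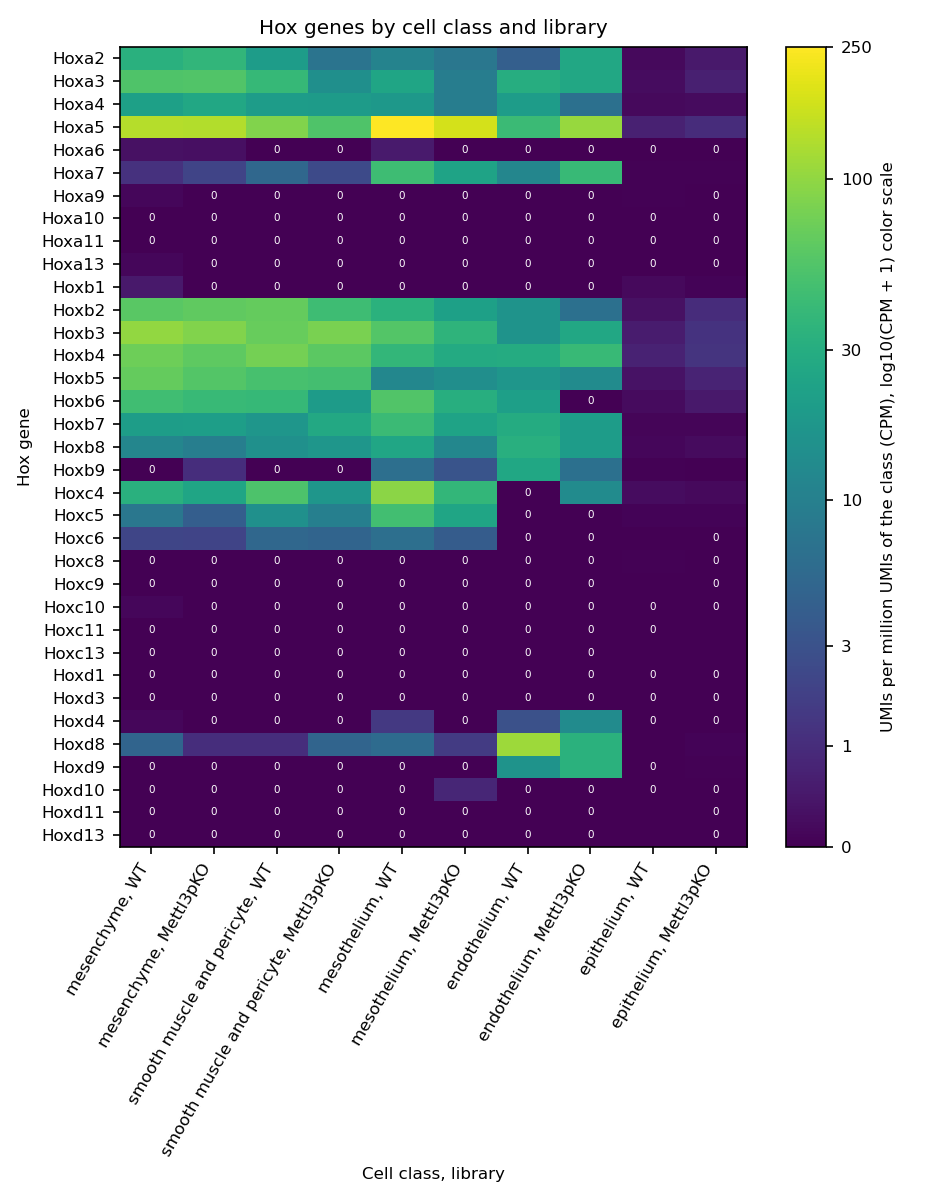
Levels of 35 Hox genes (vertical axis) in 5 cell classes of each library (horizontal axis), as CPM on a log10(CPM + 1) color scale, with 0 printed where no UMI was counted. Genes of paralog numbers 2 to 8 carry most of the signal outside the epithelium, Hoxa5 is the brightest in mesothelium-like cells, and Hoxd8 and Hoxd9 stand out in endothelium-like cells.

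The mesenchyme-like code was anterior to central, led by paralog numbers 2 to 5 of the a and b clusters. Hoxa5 (chromosome 6, 52201754 to 52204587, minus strand), which patterns the lung and other foregut mesenchyme, was highest in both libraries, at 134 CPM in WT (127 to 141) and at 133 CPM in Mettl3pKO (121 to 145). It was followed in WT by Hoxb3 at 102 CPM, Hoxb4 at 72.7, Hoxb5 at 66.5, Hoxb2 at 59.5 and Hoxa3 at 53.3. In Mettl3pKO these stood at 86.6, 63.0, 55.8, 64.0 and 54.7 CPM. The intervals of Hoxb4, Hoxb5 and Hoxb2 touched their neighbors' in that order, so that only Hoxa5 and Hoxb3 stood clear of the rest in WT.

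Next came Hoxb6 (45.4 CPM in WT and 40.1 in Mettl3pKO), Hoxa2 (32.6 and 37.2), Hoxc4 (32.6 and 24.7), Hoxa4 (21.9 and 26.3), Hoxb7 (20.6 and 21.0) and Hoxb8 (11.6 and 9.57). Below these were Hoxc5 (7.89 and 4.25), Hoxd8 (4.95 and 1.06), Hoxc6 (2.20 and 2.13) and Hoxa7 (1.19 and 2.13). The posterior end of the code was close to empty. Paralog numbers 9 to 13 held 3 of 7331 Hox UMIs in WT and 4 of 2371 in Mettl3pKO, the latter all from Hoxb9. Hoxa10, Hoxa11, Hoxc8, Hoxc9, Hoxc11, Hoxc13, Hoxd1, Hoxd3, Hoxd9, Hoxd10, Hoxd11 and Hoxd13 had 0 UMIs in mesenchyme-like cells of both libraries, where 3 UMIs would be 0.275 CPM in WT and 0.797 CPM in Mettl3pKO. Hoxa10, Hoxa11 and Hoxd1 had 0 UMIs over the complete cells of both libraries, and the WT library did not list Hoxa10 or Hoxa11.

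By cluster, Hoxb genes gave 56.4% of the mesenchyme-like Hox UMIs in WT, Hoxa genes 36.5%, Hoxc genes 6.37% and Hoxd genes 0.75%. The same shares in Mettl3pKO were 54.2%, 40.7%, 4.93% and 0.169%. Paralog number 5 alone held 31.0% of the WT UMIs, and the mean paralog number over UMIs was 4.14 in WT and 4.06 in Mettl3pKO. The profile across paralog numbers was thus close in the libraries in this class.

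The mesenchyme-like class was made of 3 clusters. Cluster 24 (283 WT and 153 Mettl3pKO cells) was proliferating, with the cycling marker Mki67 at 1074 CPM in WT. Cluster 27 (453 and 62 cells) had the most Fgf10, a mesenchymal growth factor for the pancreatic epithelium (230.1 CPM in WT), and cluster 31 (415 and 52 cells) the most Hand2, a visceral mesoderm transcription factor (441 CPM). Summed Hox levels in WT were 686, 626 and 713 CPM in clusters 24, 27 and 31.

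Hoxa2, which patterns the second branchial arch and hindbrain, was at 46.8 CPM (39.5 to 55.1) in WT cluster 24, 32.1 (26.6 to 38.5) in cluster 31 and 22.6 (18.3 to 27.7) in cluster 27. In Mettl3pKO it was at 46.4, 24.5 and 24.8 CPM, again highest in cluster 24. Hoxa2 was singled out here after its values were seen. The makeup of the class differed between the libraries, since cluster 24 was 283 of 1151 cells in WT and 153 of 267 in Mettl3pKO.

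Mesothelium, the epithelial sheet that covers the organ, had a code shifted toward central paralogs and toward the c cluster. In WT mesothelium-like cells Hoxa5 stood at 250.02 CPM (229 to 273), Hoxc4 at 94.4, Hoxb3 at 56.2, Hoxb6 at 54.7, Hoxc5 at 46.2 and Hoxa7 at 44.2. In Mettl3pKO these stood at 176, 38.05, 35.7, 30.9, 24.6 and 23.8 CPM. Paralog numbers 5 to 8 held 62.9% of the Hox UMIs in WT and 66.3% in Mettl3pKO, against 43.8% and 42.7% in mesenchyme-like cells. The mean paralog number was 4.86 and 4.83. Both libraries thus showed the same direction of shift between these classes.

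A gene that set these classes far apart was Hoxa7 (chromosome 6, 52214491 to 52221854, minus strand), a member of the central group that acts in the trunk. It had 89 UMIs in 203 WT mesothelium-like cells and 13 in 1151 mesenchyme-like cells, a level ratio of 37.1 (20.6 to 72.4). In Mettl3pKO the ratio was 11.2 (5.01 to 28.2). Its exons share bases with the antisense RNA Hoxaas3, and no source used here gives whether counting used strand, so that reads of the pair cannot be told apart. Hoxaas3 itself stood at 11.4 CPM in WT mesothelium-like and 7.24 CPM in WT mesenchyme-like cells.

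The c cluster followed. Hoxc5 was 5.86-fold (4.32 to 7.95) higher in mesothelium-like than in mesenchyme-like cells in WT and 5.78-fold (3.07 to 11.3) in Mettl3pKO. Hoxc5 shares exon bases with Hoxc10 on the same strand, which had 1 UMI in all. Hoxc4 (chromosome 15, 103018934 to 103036852, plus strand) was 2.89-fold (2.41 to 3.46) and 1.54-fold (1.06 to 2.20) higher. For Hoxa5 the ratios were 1.87 (1.68 to 2.07) and 1.33 (1.13 to 1.56). Each of these genes was thus higher in mesothelium-like cells in both libraries.

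Hoxb7 and Hoxb8 were 2.05-fold and 2.18-fold higher in WT, and in Mettl3pKO their ratios of 1.13 and 1.24 had intervals that included 1. Hoxb9 had 13 UMIs in WT mesothelium-like cells and 0 in mesenchyme-like cells. Against 3 UMIs in the latter class it was 23.5-fold higher, with the counting error of the 13 UMIs left aside. In Mettl3pKO, Hoxb9 had 4 UMIs in each class.

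Other genes ran the opposite way. Hoxb5 was at 11.9 CPM in WT mesothelium-like cells against 66.5 CPM in mesenchyme-like cells, 5.57-fold lower, and in Mettl3pKO at 14.3 against 55.8 CPM, 3.91-fold lower. Hoxa2 was 2.99-fold lower in WT and 4.69-fold lower in Mettl3pKO, and Hoxa3 2.14-fold and 5.75-fold. Hoxb5 and Hoxa5, which carry the same paralog number, therefore differed in opposite directions between the mesothelium-like and mesenchyme-like classes in both libraries. Exons of Hoxb5 share bases with the antisense RNA Hoxb5os, and those of Hoxa2 and Hoxa3 with Gm28308 on the same strand. Hoxa3 also shares exon bases with genes on the opposite strand. Reads of these genes may thus be shared.

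**Figure D2:**
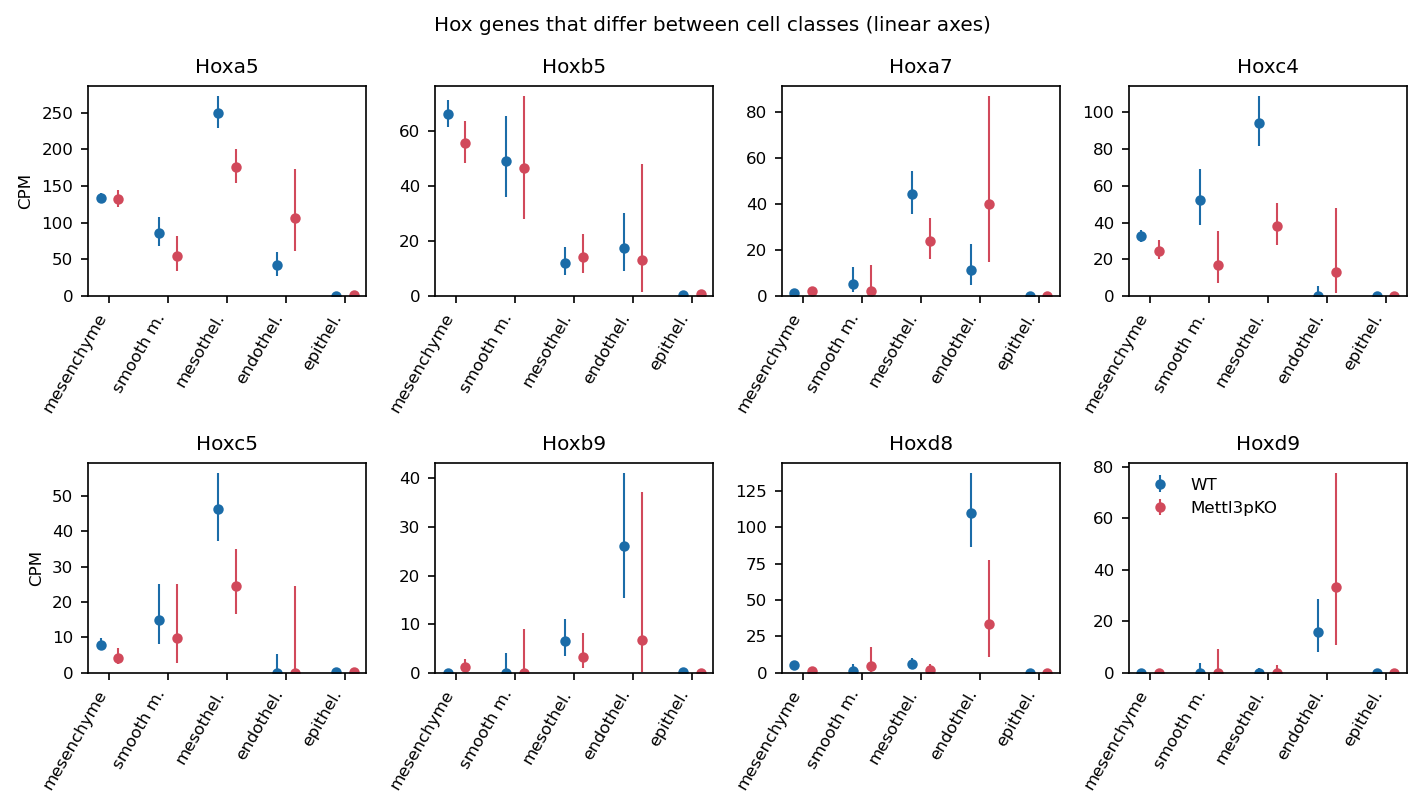
CPM of 8 Hox genes in 5 cell classes, with points for each library and bars for the 95% counting interval, on linear axes that differ between panels. Hoxa7, Hoxc4 and Hoxc5 are highest in WT mesothelium-like cells, Hoxb5 is highest in mesenchyme-like cells, and Hoxd8, Hoxd9 and (in WT) Hoxb9 are highest in endothelium-like cells, where the Mettl3pKO bars are wide because 9 cells were held.

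Endothelium-like cells, the lining of blood vessels, carried a pattern of their own, with the d cluster prominent in both libraries and no c cluster UMI in WT. In WT, Hoxd8 (chromosome 2, 74704615 to 74707933, plus strand) had 76 UMIs in 67 cells, or 110.2 CPM (86.8 to 138). That was 22.2-fold (15.49 to 32.1) the level of mesenchyme-like cells. Hoxd9, its neighbor on the chromosome (74697727 to 74700208), had 11 UMIs or 15.9 CPM and was at 0 UMIs in mesenchyme-like, mesothelium-like and smooth muscle- and pericyte-like cells of both libraries. Against 3 UMIs in WT mesenchyme-like cells Hoxd9 was 57.95-fold higher, with the counting error of its own 11 UMIs (7.96 to 28.5 CPM) left aside.

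Hoxb9 had 18 UMIs (26.1 CPM) in WT endothelium-like cells and 0 UMIs in WT mesenchyme-like cells. Against 3 UMIs in the latter class it was 94.8-fold higher, with the counting error of its own 18 UMIs left aside. The other leading genes in WT were Hoxa5 at 42.0 CPM, Hoxb8 at 31.9, Hoxa3 at 30.4, and Hoxb4 and Hoxb7 at 28.99 each. The 8 Hoxc genes had 0 of 296 Hox UMIs in WT, which allows a share of up to 1.24%. Counting that 0 as 3 UMIs, Hoxc4 would be 7.51-fold lower than in mesenchyme-like cells. Paralog numbers 9 to 13 held 9.80% of WT endothelial Hox UMIs, against 0.833% in mesothelium-like and 0.0409% in mesenchyme-like cells, and the mean paralog number was 6.10.

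The 9 Mettl3pKO endothelium-like cells held 67 Hox UMIs: 16 of Hoxa5 (107 CPM), 5 of Hoxd8 (33.3 CPM), 5 of Hoxd9 (33.3 CPM), 1 of Hoxb9 and 2 of Hoxc4. Hoxd8 and Hoxd9 were thus found in endothelium-like cells of both libraries. With 9 cells no genotype ratio was computed for this class.

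Smooth muscle- and pericyte-like cells had a lower summed level than mesenchyme-like cells, 0.866-fold (0.792 to 0.944) in WT and 0.687-fold (0.586 to 0.801) in Mettl3pKO. In WT, Hoxb4 was at 78.1 CPM (1.07-fold the mesenchyme-like level, 0.833 to 1.37), Hoxa5 at 86.6 (0.647, 0.511 to 0.809), Hoxb3 at 68.5 (0.670, 0.512 to 0.862) and Hoxc4 at 52.4 (1.61, 1.17 to 2.17). Mettl3pKO had 28 such cells with 176 Hox UMIs, of which 33 were Hoxb3, 25 Hoxb4 and 22 Hoxa5. The genes that set mesothelium-like cells apart, such as Hoxa7 at 5.35 CPM (5 UMIs) and Hoxc5 at 15.0 CPM (14 UMIs) in WT, lay between the mesenchyme-like and mesothelium-like levels.

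Glia of the pancreatic nerves derive from neural crest. Cells with UMIs of at least 6 of 10 glial markers, a rule set after values were seen, numbered 5 in WT and 2 in Mettl3pKO. The WT cells held 8 Hox UMIs (121 CPM), of which 3 were Hoxb2, 2 Hoxd4 and 1 each Hoxb5, Hoxb8 and Hoxd3. The Mettl3pKO cells held 14, of which 13, with all 9 of Hoxb5, came from a single cell that clustered with the neuron-like cells. The neuron-like cluster had 6 WT and 2 Mettl3pKO cells, with 19 and 13 Hox UMIs, and 1 of these cells in each library was also among those chosen by glial markers. The 13 Mettl3pKO UMIs are thus those of the cell just named. The WT UMIs were 7 of Hoxb3, 4 of Hoxb2, 4 of Hoxd3 and 1 each of Hoxa5, Hoxb4, Hoxb5 and Hoxd4. Hoxd3 and Hoxd4 share exon bases on the same strand and may share reads. In mesenchyme-like cells Hoxd3 was at 0 UMIs, but so few nerve cells allow no comparison of levels.

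**Figure D3:**
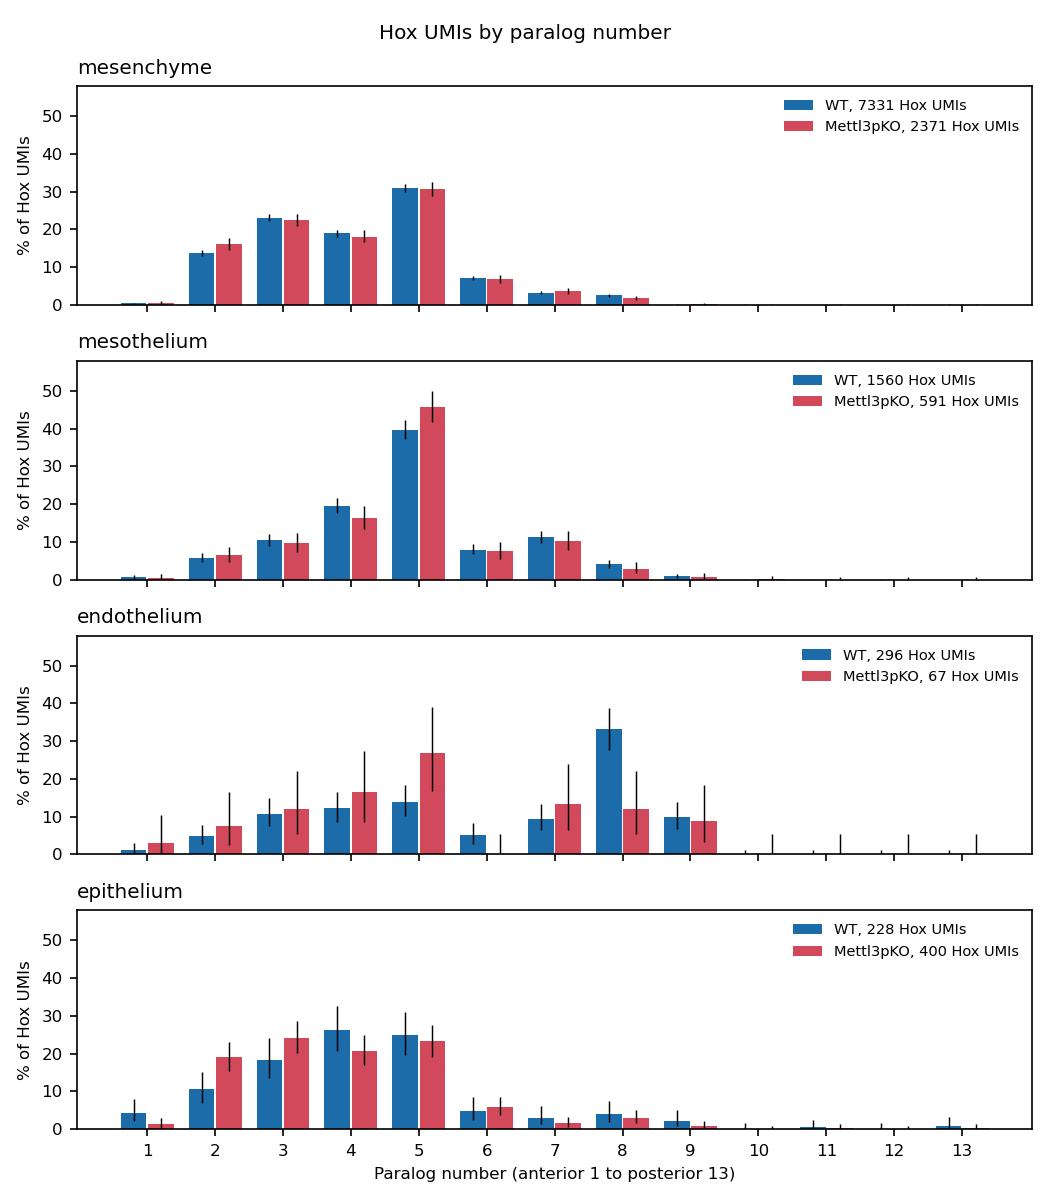
Share of a class's Hox UMIs (percent, vertical axis) held by each paralog number (horizontal axis), with bars for each library and lines for the 95% Clopper-Pearson interval. Paralog number 5 leads in mesenchyme-like and mesothelium-like cells of both libraries and number 8 in WT endothelium-like cells; number 12 has no member here.

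Between genotypes, the mesenchyme-like Hox code differed little. The summed level was 672 CPM in WT and 630.0 in Mettl3pKO, a ratio of 0.937 (0.894 to 0.982). With the clusters weighted as in WT, a setting chosen after seeing the data, the ratio was 0.877. Of 17 Hox genes with at least 20 UMIs over both libraries, 2 were at least 1.5-fold higher in Mettl3pKO (8.48% of all 12405 genes were) and 2 at least 1.5-fold lower (6.14% of all genes were). Their median log2 ratio was −0.01, against 0.02 over all genes. The 4 Hox genes past 1.5-fold were all among the 5 with the fewest UMIs of these 17.

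Both genes that were higher had intervals that included 1, among them Hoxa7 (13 UMIs in WT and 8 in Mettl3pKO, ratio 1.78, 0.641 to 4.64). The pair that was lower was Hoxc5 and Hoxd8. Hoxc5 stood at 7.89 CPM in WT (86 UMIs) and 4.25 CPM in Mettl3pKO (16 UMIs), a ratio of 0.539 (0.295 to 0.926), and it was 0.543, 0.560 and 0.399 in clusters 24, 27 and 31. Hoxd8 stood at 4.95 CPM (54 UMIs) and 1.06 CPM (4 UMIs), a ratio of 0.215 (0.0564 to 0.582). Among cells of 13000 UMIs or more, however, the Hoxd8 ratio was 1.76. That value rests on at most these 4 Mettl3pKO UMIs, so that its direction at that depth is uncertain.

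In clusters 27 and 31 the WT cells held 23 and 22 UMIs of Hoxd8 and the Mettl3pKO cells 0. Counting each 0 as 3 UMIs, Hoxd8 would be 1.57-fold and 1.47-fold lower, with the counting error of the WT UMIs left aside. In the proliferating cluster 24 it had 9 and 4 UMIs. The more abundant members were within 1.5-fold: Hoxa5 at a ratio of 0.990 (0.892 to 1.10), Hoxb3 at 0.847 (0.747 to 0.959) and Hoxb4 at 0.866 (0.746 to 1.002). By gene cluster the ratio was 1.05 (0.971 to 1.13) for Hoxa, 0.900 (0.845 to 0.958) for Hoxb, 0.726 (0.588 to 0.891) for Hoxc and 0.211 (0.0555 to 0.571) for Hoxd.

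The clusters of mesenchyme-like cells did not give the same ratio. The summed Hox level was 686 CPM in WT and 688 in Mettl3pKO in cluster 24, 626 and 467 in cluster 27, and 713 and 647 in cluster 31. In cluster 27, 4 of 15 Hox genes were at least 1.5-fold lower (10.8% of all genes there were) and 1 was higher (9.11% of all genes). The lower ones were Hoxd8, Hoxc4 (141 UMIs and 14, ratio 0.486, 0.259 to 0.843), Hoxb6 (179 and 22, 0.602, 0.368 to 0.940) and Hoxc5. In cluster 24, 1 of 13 was lower (4.86% of all genes) and 0 higher (6.50%), and in cluster 31, 3 of 14 were lower (11.6% of all genes) and 0 higher (11.1%).

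Mesothelium-like cells had a lower Hox level in Mettl3pKO. The summed level was 775 CPM in WT and 468 in Mettl3pKO, a ratio of 0.604 (0.549 to 0.665). Of 14 Hox genes with at least 20 UMIs, 10 were at least 1.5-fold lower, where 13.3% of all 10785 genes were, and 0 were higher, where 14.2% of all genes were. Their median log2 ratio was −0.81, against −0.02 over all genes, and 13 of 14 had a ratio below 1.

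Hoxc4 stood at 94.4 CPM (190 UMIs) in WT and 38.05 CPM (48 UMIs) in Mettl3pKO, a ratio of 0.403 (0.287 to 0.555). Hoxa3 stood at 24.9 and 9.51 CPM (0.383, 0.186 to 0.729), Hoxb8 at 25.4 and 11.9 CPM (0.469, 0.245 to 0.847) and Hoxc5 at 46.2 and 24.6 CPM (0.532, 0.342 to 0.806). The ratio was 0.538 for Hoxa7, 0.563 for Hoxb7, 0.565 for Hoxb6 and 0.635 for Hoxb3, each with an interval below 1. Hoxa5, the most abundant, was at 0.704 (0.598 to 0.826) and Hoxb5 at 1.20 (0.612 to 2.30). The c cluster had the lowest ratio among the a, b and c clusters, at 0.453 (0.351 to 0.578), against 0.649 for Hoxa and 0.636 for Hoxb.

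Other measures moved with this difference. The 10 mesothelium markers, all with UMIs in both libraries, summed to 4069 CPM in WT and 2614 CPM in Mettl3pKO, and the 12 mesenchyme markers to 28945 and 22963 CPM. The 11 acinar markers, 10 with UMIs in each library and Pnlip at 0, summed to 872 CPM in WT and 9119 CPM in Mettl3pKO. The 10 hepatocyte markers summed to 15.9 CPM (3 with UMIs) and 516 CPM (6 with UMIs), and the 10 erythroid markers to 6219 and 1613 CPM. Their part in the lower Hox level was not tested. When classes were set cell by cell from the marker lists instead, the ratio of the summed level was 0.730 and 3 Hox genes were at least 1.5-fold lower.

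**Figure D4:**
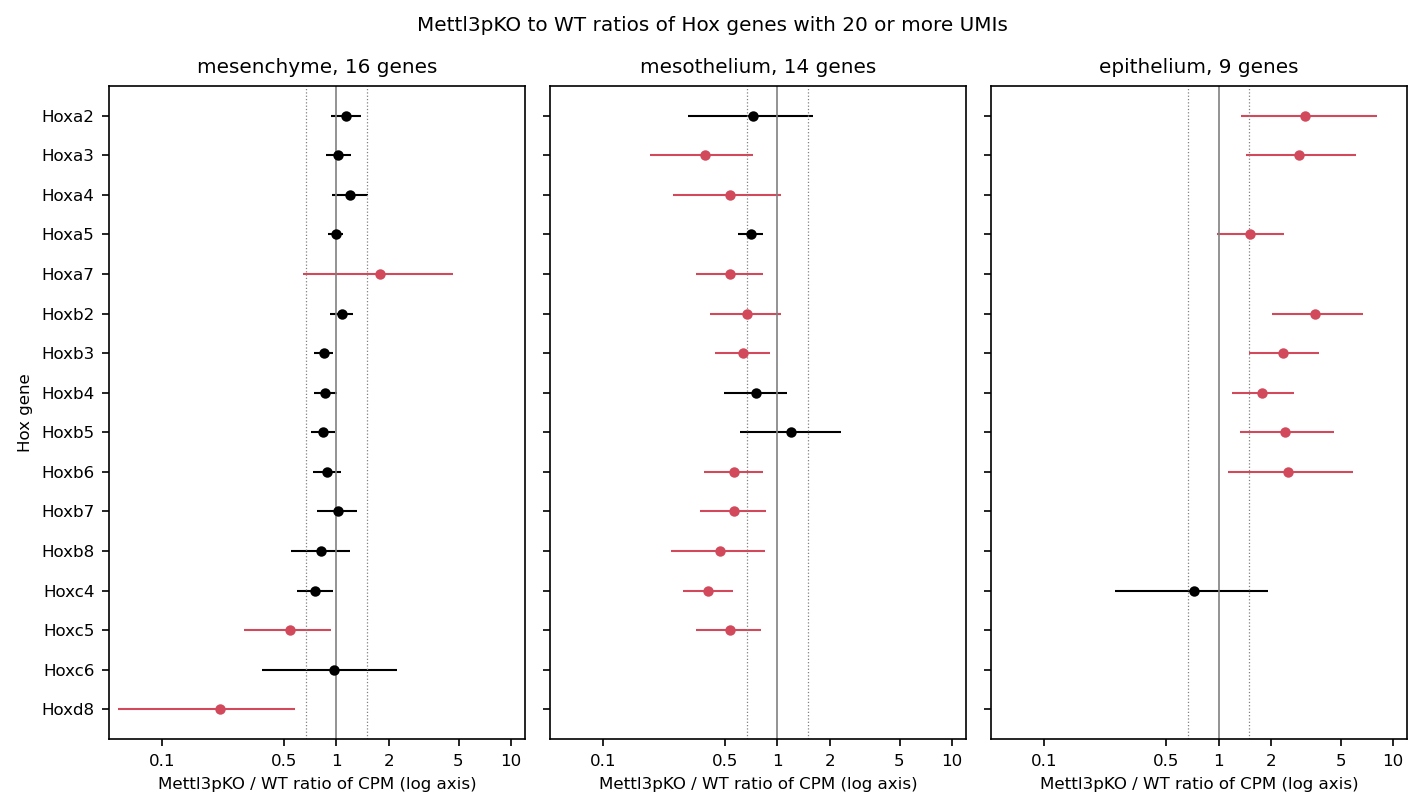
Mettl3pKO to WT ratio of CPM (horizontal log axis) of Hox genes with 20 or more UMIs over both libraries in mesenchyme-like (16 genes), mesothelium-like (14) and epithelium-like (9) cells, with 95% counting intervals; red marks ratios past 1.5-fold, shown by the dotted lines. Mesenchyme-like ratios gather near 1, 13 of 14 mesothelium-like ratios lie below 1 and 8 of 9 epithelium-like ratios above 1.

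In epithelium-like cells Hox UMIs were rare in both libraries. Thinned to 7000 UMIs, 2.68% (2.21 to 3.22) of 4180 WT cells and 3.82% (3.14 to 4.59) of 2830 Mettl3pKO cells had one (4.40% and 8.62% unthinned, at median depths of 11543.5 and 16683.5 UMIs). The erythroid-like shares given above, from 1 and 2 cells with a Hox UMI, were 1.01% and 4.08% with wide intervals that held both epithelial shares. Free RNA and low expression could not be told apart at this depth. The members with the most UMIs were those that led in mesenchyme-like cells: Hoxb4 (0.714 CPM in WT and 1.27 in Mettl3pKO), Hoxb3 (0.536 and 1.26), Hoxa5 (0.660 and 1.00), Hoxb2 (0.286 and 1.02), Hoxb5 (0.303 and 0.734) and Hoxa3 (0.214 and 0.618). The summed Hox level was 0.605% (0.528 to 0.691) of the mesenchyme-like level in WT and 1.23% (1.10 to 1.36) in Mettl3pKO.

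The same was measured for 10 collagen and matrix genes made by mesenchyme. Their summed level in epithelium-like cells was 0.400% (0.392 to 0.408) of the mesenchyme-like level in WT and 0.834% (0.820 to 0.848) in Mettl3pKO, below the summed Hox percent in both libraries. Over 15 of the 16 Hox genes measured in WT, the other one not being reported here, the epithelium-like level was 0.360% to 0.982% of the mesenchyme-like level, with a median of 0.493%, and over the 10 matrix genes 0.247% to 1.47%, with a median of 0.388%. In Mettl3pKO the medians were 1.16% over 12 Hox genes and 0.862% over the matrix genes. The ranges of single Hox and matrix genes overlapped in each library.

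The summed Hox level in epithelium-like cells was 1.90-fold (1.61 to 2.24) higher in Mettl3pKO. The epithelium was not made of the same cells: acinar-like cells were 1859 of 4252 in WT and 2120 of 2830 in Mettl3pKO, duct- and trunk-like cells 1278 and 369, endocrine progenitor-like cells 184 and 9, and Fev precursor-like cells 319 and 31. The shallowest cell had 3803 UMIs in WT and 10719 in Mettl3pKO, and the part of this depth difference in the makeup was not tested. Within acinar-like cells the summed Hox level was 3.99 CPM (3.27 to 4.81) and 5.397 CPM (4.70 to 6.16). Of 9 Hox genes with at least 20 UMIs, 8 were at least 1.5-fold higher, where 9.17% of all 15686 genes were, and 0 were lower, where 23.7% of all genes were. Hoxb2 had 16 UMIs in WT and 53 in Mettl3pKO (ratio 3.58, 2.02 to 6.71), Hoxa2 8 and 23 (3.11, 1.34 to 8.04), Hoxa3 12 and 32 (2.88, 1.45 to 6.15) and Hoxb6 10 and 23 (2.49, 1.14 to 5.86). Hoxb5 (17 and 38 UMIs), Hoxb3 (30 and 65) and Hoxb4 (40 and 66) had ratios of 2.42, 2.34 and 1.78 with intervals above 1. Hoxc4 had 12 and 8 UMIs (0.721, 0.256 to 1.92). Of the 10 matrix genes 9 were also at least 1.5-fold higher, with a median log2 ratio of 0.89 against −0.17 over all genes.

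Beta-like cells, the insulin class, carried 122 of the 400 Mettl3pKO epithelial Hox UMIs, and 105 of these were in 18 cells with 3 or more each. The summed Hox level there was 5.54 CPM in WT and 44.6 CPM in Mettl3pKO, and the matrix genes summed to 270.0 and 2481 CPM. In these cells Hox UMIs numbered 20.5 per 1000 matrix UMIs in WT and 18.0 in Mettl3pKO, against 16.5 and 17.3 in mesenchyme-like cells and 25.2 and 32.0 in acinar-like cells. Without beta-like cells the summed Hox level of the epithelium was 3.97 CPM in WT and 5.67 CPM in Mettl3pKO, a ratio of 1.43. Doublet removal left 340 cells out of WT and 1 out of Mettl3pKO, and its part in the epithelial difference was not tested. With those cells kept and the clusters made anew, the ratio was 1.44. The Mettl3pKO level was then 5.49 CPM against 7.72 CPM, so that this setting changed more than the cells kept.

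A cluster that took no name bears on the epithelial values. Cluster 29 had 8 WT and 185 Mettl3pKO cells (5.11% of the kept Mettl3pKO cells) and 867 Hox UMIs in Mettl3pKO, 19.0% of that library's total, at 226 CPM (211 to 241). It also held 21506 CPM of acinar markers and 12376 CPM of mesenchyme markers, and 17.7 Hox UMIs per 1000 matrix UMIs. Its median doublet score was 0.128 and its best marker list was duct and trunk (0.231, against 0.226 for mesenchyme). Giving such clusters the name of their best list raised the epithelial Hox level in Mettl3pKO to 22.1 CPM and the ratio to 5.04.

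**Figure D5:**
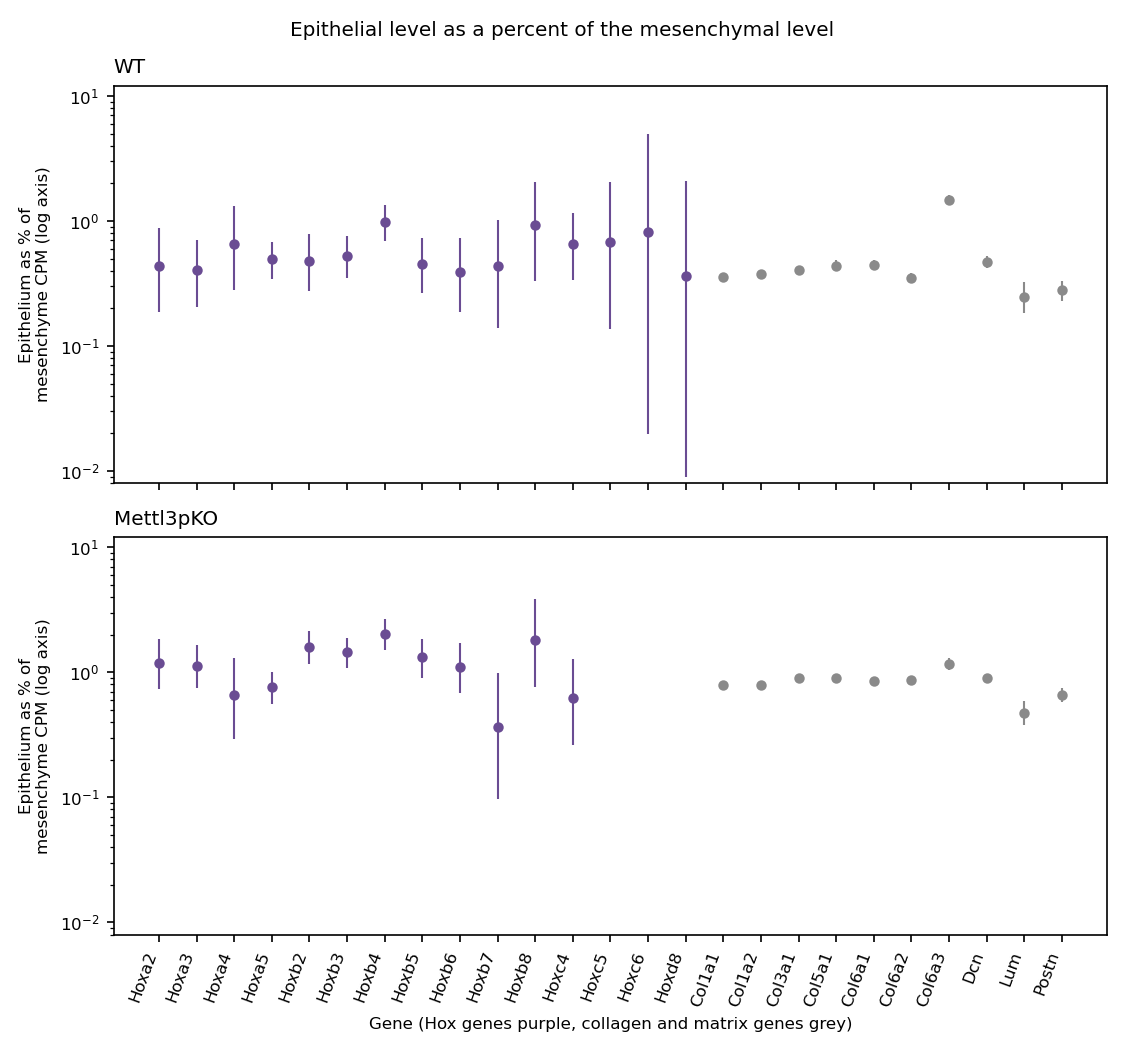
CPM in epithelium-like cells as a percent of CPM in mesenchyme-like cells (vertical log axis) for Hox genes (purple) and matrix genes (grey) with 20 or more UMIs in mesenchyme-like cells of the library, WT above and Mettl3pKO below, with 95% counting intervals. In WT the 15 Hox genes drawn lie between 0.360% and 0.982% and the matrix genes between 0.247% and 1.47%, and in Mettl3pKO the medians are 1.16% and 0.862%.

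The partners and regulators of Hox proteins were read from lists in the same way. Over all genes, 8.48% were higher and 6.14% lower in mesenchyme-like cells, 14.2% and 13.3% in mesothelium-like cells, and 9.17% and 23.7% in epithelium-like cells. TALE cofactors were abundant in mesenchyme-like cells: Meis1 had a WT level of 235 CPM and a Mettl3pKO level of 222, and Meis2 levels of 206 and 199.6. Of 9 TALE genes 0 were at least 1.5-fold higher and 1 was lower there. Meis3 had a ratio of 0.695 (0.523 to 0.913) and Pbx3 of 1.38 (1.18 to 1.60). In mesothelium-like cells 2 of 6 measured TALE genes were lower (13.3% of all genes) and 0 higher (14.2%), among them Meis1 at 189.9 and 124 CPM (0.651, 0.537 to 0.787).

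Of the retinoic acid pathway, whose ligand sets Hox expression along the axis, 2 of 16 measured genes were higher (8.48% of all genes) and 2 lower (6.14%) in mesenchyme-like cells. Rbp4, the carrier of retinol, was at 10.4 CPM in WT and 38.5 in Mettl3pKO (3.72, 2.89 to 4.80), and Cyp26b1, which degrades retinoic acid, at 25.04 and 13.8 (0.552, 0.402 to 0.745). Of the 145 Mettl3pKO UMIs of Rbp4, 126 came from the proliferating cluster 24, and its ratio was 5.74 there, 1.51 (0.803 to 2.68) in cluster 27 and 0.499 (0.0974 to 1.60) in cluster 31. Rbp4 was also among the leading genes of the delta-like cluster. Acinar markers in the mesenchyme-like class summed to 769 CPM in WT and 1120.2 CPM in Mettl3pKO and duct markers to 130 and 199 CPM, and their part in the Rbp4 difference was not tested. In mesothelium-like cells 2 of 13 were higher (14.2% of all genes) and 3 lower (13.3%). Aldh1a2, which makes retinoic acid, was at 835 and 441 CPM (0.528, 0.479 to 0.582) and its receptor gene Rarb at 48.2 and 23.0 CPM (0.477, 0.303 to 0.728). Aldh1a2 was also among the leading genes of the mesothelium-like cluster. Mesothelium markers summed lower and acinar markers higher in Mettl3pKO cells of this class, as given above, and their part in its ratios was not tested.

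Among Polycomb subunits, which keep Hox genes silent, 2 of 27 were higher (8.48% of all genes) and 1 lower (6.14%) in mesenchyme-like cells: Pcgf5 had a ratio of 2.08, Ezh2 of 1.64 and Ezh1 of 0.577. The proliferating cluster 24 was 283 of 1151 of these cells in WT and 153 of 267 in Mettl3pKO. Within clusters 24, 27 and 31 the ratio was 1.10 (0.994 to 1.22), 1.47 (1.19 to 1.82) and 1.795 (1.48 to 2.17) for Ezh2, and 0.471, 0.867 and 0.726 for Ezh1. Cycling still differed within clusters: Mki67 was at 1074 CPM in WT and 1005 in Mettl3pKO in cluster 24. It was at 27.9 and 53.0 CPM in cluster 27, and at 31.0 and 59.8 CPM in cluster 31. The part of cycling in the Ezh2 ratios was not tested. Of 15 Trithorax and MLL subunits, which keep Hox genes active, 0 were past 1.5-fold there. In mesothelium-like cells 3 of 27 Polycomb genes were higher and 2 lower, and 2 of 15 Trithorax genes higher and 0 lower, where 14.2% of all genes were higher and 13.3% lower. Among 4 measured noncoding RNAs of the Hox clusters in mesenchyme-like cells, 1 was higher and 2 lower. Hotairm1, at the anterior end of the a cluster, was at 9.63 and 4.78 CPM (0.497, 0.283 to 0.824), and Hoxaas3 at 7.24 and 12.5 CPM (1.72, 1.18 to 2.50). In mesothelium-like cells Hotairm1 was at 31.8 CPM in WT and 16.6 in Mettl3pKO (0.523, 0.304 to 0.868).

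In the epithelium the ParaHox gene Pdx1 was at 50.4 CPM in WT and 25.8 CPM in Mettl3pKO (0.511, 0.479 to 0.546), across the different makeup of the class given above. Of its 9 TALE genes 0 were higher (9.17% of all genes) and 3 lower (23.7%), among them Meis3 at 8.43 and 4.52 CPM (0.536, 0.456 to 0.629).

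The remaining Hox genes were rare in every class. Over all kept cells, Hoxb1, a hindbrain gene at the anterior end of its cluster, had 13 UMIs in WT and 4 in Mettl3pKO, Hoxa6 had 5 and 2, Hoxd4 7 and 2, Hoxd3 4 and 0, and Hoxa9 6 and 1. Hoxc8 had 2 UMIs in WT and 0 in Mettl3pKO, and Hoxc13 had 1 in each. Hoxa13, Hoxc9, Hoxc10, Hoxd11 and Hoxd13 had 1 UMI in WT alone, and Hoxc11 and Hoxd10 had 1 in Mettl3pKO alone. At such counts no level could be compared between classes or genotypes, and members such as Hoxa13 and Hoxd13, which pattern limb and hindgut, were at or near the limit of detection.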

How the data were processed

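Each library was deposited as a table of raw UMI counts per cell and gene, made with the BD WTA Rhapsody Analysis Pipeline version 1.8, per the file headers. The submitters' processing notes name mm10 and Seurat; their role, and whether counting used strand, are not given in the sources used here. Both tables ended within a line, so 1 incomplete cell per library was dropped, and further cells were not analysed here.

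Cells were kept from 200 genes upward where mitochondrial genes gave 25% of UMIs or less. Scrublet, run per library, marked 340 of the WT cells (5.34%) and 1 of the Mettl3pKO cells (0.0276%), so that few doublets, if any, were taken out of the latter. Counts were scaled to 10000 UMIs per cell, and clusters were made from 2000 variable genes without the Hox genes, 30 components and 15 neighbours at Leiden resolution 1.0, which gave 32 clusters. A cluster took the name of its best marker list where the markers allowed it. Clusters with a median doublet score above 0.1, or with 2 markers of another list and 0 of their own among the top 10 genes, stayed unnamed, and these limits were set after values were seen. Levels are summed counts per class, with exact Poisson, conditional binomial and Clopper-Pearson intervals at 95%. A gene counted as higher or lower at 1.5-fold or more with at least 20 UMIs over both libraries. The computations were tested on simulated data.

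One Hox gene and a cofactor gene are not reported here by name and not drawn; they stay in the summed levels and in the counts of genes past 1.5-fold, and are left out of the per-gene epithelial percents. Those named are the highest by level (up to 12 in mesenchyme-like and 6 in other classes), those past 1.5-fold whose interval leaves out 1, and, from the other lists, genes with the ratio farthest from 1 among those of at least 50 UMIs or the highest levels; others are described by role or where a class turns on them. The Hox genes and all lists were chosen with earlier results of these data known. Gene positions are from GENCODE vM21 (mm10). Python 3.11.15, scanpy 1.11.5, scipy 1.17.1, numpy 2.4.6, igraph 0.11.9 and matplotlib 3.10.9 were used.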

Additional observations from a re-analysis of the deposited data

Results flagged for a closer look

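The summed Hox level did not move the same way in each class between genotypes. The Mettl3pKO to WT ratio was 0.604 in mesothelium-like cells and 1.90 in epithelium-like cells, on opposite sides of 1, against 0.937 in mesenchyme-like cells. Both sizes depended on which cells a class held. The epithelial ratio was 1.43 without beta-like cells, 2.37 with classes set cell by cell and 5.04 with unnamed clusters given their best list. With classes set cell by cell the mesothelial ratio was 0.730. With 1 library per genotype the difference between classes was not tested.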

How the results depend on the processing

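No paired analysis was possible because each genotype had 1 library. No filter on cells, removal of the top 5% of doublet scores and leaving out the member with the most UMIs moved none of the summary values. Levels and ratios below are summed Hox CPM and Mettl3pKO to WT ratios, and counts are of Hox genes past the fold; the causes were not tested.

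With the filter set to 500 genes and 10% mitochondrial UMIs, the Mettl3pKO epithelium level was 9.90, the epithelium ratio 2.39 and the epithelial percent of the mesenchymal level 1.60%. With Scrublet-marked cells kept and the clusters made anew, these were 5.49, 1.44 and 0.878%, and the share of epithelial cells with a Hox UMI was 3.07%. At Leiden resolution 2.0 they were 5.77, 1.46 and 0.914%. With Hox genes allowed in the clustering, 1 gene was higher in mesenchyme. With each cell in the class of its own markers, Mettl3pKO levels were 605 in mesenchyme, 558 in mesothelium and 9.74 in epithelium, the ratios 0.730 in mesothelium and 2.37 in epithelium, the epithelial percent 1.61%, and 1 gene was higher in mesenchyme and 3 lower in mesothelium.

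Among cells of 13000 UMIs or more, the level was 623 in WT mesenchyme, 426 in Mettl3pKO mesothelium and 482 in WT endothelium. The mesenchyme ratio there was 0.986, with 1 gene lower and 0 higher, 96.0% of WT cells with a Hox UMI and a median log2 ratio of 0.31 for the retinoic acid list. Hoxd8 in mesenchyme reversed, to a ratio of 1.76, from at most the 4 UMIs it had in all Mettl3pKO mesenchyme-like cells. Without mitochondrial, ribosomal protein and globin UMIs, WT and Mettl3pKO levels were 804 and 747 in mesenchyme, 934 and 573 in mesothelium, 546 and 571 in endothelium, and 5.16 and 10.3 in epithelium. As a mean over cells, the Mettl3pKO mesothelium level was 510.5 and 1 gene was lower in epithelium, as it was with a minimum of 10 UMIs. With a minimum of 50 UMIs, 0 genes were higher in mesenchyme and 5 in epithelium. At 2-fold, 1 gene was lower and 0 higher in mesenchyme, and 3 were lower in mesothelium.

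Thinned to 10000 UMIs, 99.5% of WT and 98.9% of Mettl3pKO mesenchyme-like cells and 5.51% of Mettl3pKO epithelium-like cells had a Hox UMI. Without thinning, the shares were 98.6% and 99.6% in mesenchyme and 4.40% and 8.62% in epithelium. The following were chosen after seeing the data. Weighting mesenchyme clusters as in WT gave a ratio of 0.877. Leaving out beta-like cells gave an epithelium level of 5.67 in Mettl3pKO, a ratio of 1.43, a share of 3.07% and a percent of 0.900%. Giving unnamed clusters the class of their best list gave 22.1, 5.04, 7.87% and 3.51%. The number of cells limits the Mettl3pKO endothelium-like class (9 cells).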
